A study of Mus musculus with 13 samples.

Results

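ESR1 (estrogen receptor alpha) binding was examined at 10 genes of TGF-β signaling: the ligands Tgfb1, Tgfb2 and Tgfb3, the receptors Tgfbr1, Tgfbr2 and Tgfbr3, and the intracellular Smad2, Smad3, Smad4 and Smad7. Each gene was given a window of its gene body plus 10 kb on each side, and every ESR1 peak whose summit lay in a window was counted. The 10 windows held 1807 of the 686823 peaks of the series and 280 of its 228284 regions, a region being a stretch of peaks that overlapped across libraries. The 10 genes were compared with the 19575 protein-coding genes that had at least 1 peak in a window of the same kind.

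The cells were primary fibroblasts from the lower abdominal muscle of Aromhum mice. These mice carry a human aromatase transgene, aromatase being the enzyme that makes estradiol (E2), so the vehicle cultures carried it as well and no wild-type cells were included. ChIP-Seq with an antibody to ESR1 was done in 4 treatments of 3 libraries each: vehicle (ethanol and DMSO), fulvestrant alone at 100 nM, E2 alone at 10 nM, and both agents together at these doses. E2 or its solvent was present for 1 hour. Fulvestrant, an ESR1 antagonist that also leads to loss of the receptor, was given before E2. Peak lists hold no expression values, so the fibroblast label could not be checked against marker genes here, and the labels do not say whether the 3 replicates came from separate mice.

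In mm10, Tgfb1 lies at chr7:25687002-25705077, Tgfb2 at chr1:186622792-186705989 and Tgfb3 at chr12:86056745-86079041. Tgfbr1 lies at chr4:47353222-47414931, Tgfbr2 at chr9:116084293-116175360 and Tgfbr3 at chr5:107106570-107289629. Smad3 lies at chr9:63646767-63757994. Smad2, Smad4 and Smad7 lie on chromosome 18, at chr18:76241580-76310963, chr18:73639009-73703780 and chr18:75367529-75395935. The windows ran from 38.1 kb for Tgfb1 to 203 kb for Tgfbr3.

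TGF-β ligands bind a receptor complex of the kinases TGFBR1 and TGFBR2, and TGFBR3 (betaglycan) is a co-receptor that presents ligand, TGF-β2 above all. The active receptor phosphorylates SMAD2 and SMAD3, which join SMAD4 and enter the nucleus to switch on target genes, while SMAD7 is an inhibitor that is itself induced by the pathway. In fibroblasts the pathway is known for driving matrix production and the myofibroblast state. ESR1 binds DNA directly at estrogen response elements (EREs), which pair the arms GGTCA and TGACC around a gap of 3 bases, and also through other factors such as AP-1.

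E2 replicate 1 and fulvestrant replicate 2 stood apart from the other 10 libraries. Their lists were the longest, with 104571 and 80754 peaks against 34293 to 68971, and 59.4% and 27.9% of their peaks were repeat-masked, meaning that over 50% of the bases around the summit were masked as repeats, against 5.57% to 7.79% in the other 10. E2 replicate 1 nevertheless had the fewest peaks in the 10 windows, 82 against 109 to 190. The main comparisons of treatments that rest on these libraries are given with and without them.

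The sequences of the sites that the results turn on are shown first, as 201 bases of the mm10 plus strand centered on the strongest summit. In the first 4, capitals mark the 13 bases that match the ERE best. The first 3 are among the 5 regions of the 10 genes in which an element with at most 1 mismatch lay within 100 bp of a summit; the other 2, at Smad7, are described by their values only. The last 2 were chosen after their values were seen, because their ranks separated the libraries given E2 from those not given it once the outlying pair was left out. In the last, no element with at most 2 mismatches was found and capitals mark single arms, GGTCA and TGACC, which there lie farther apart than in an ERE.
Tgfb2, 6.8 kb upstream, chr1:186712725-186712925: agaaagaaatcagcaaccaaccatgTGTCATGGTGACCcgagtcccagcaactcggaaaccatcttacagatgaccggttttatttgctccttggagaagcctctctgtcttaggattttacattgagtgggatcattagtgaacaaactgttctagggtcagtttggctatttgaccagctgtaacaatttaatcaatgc
Tgfb2, intron, chr1:186648113-186648313: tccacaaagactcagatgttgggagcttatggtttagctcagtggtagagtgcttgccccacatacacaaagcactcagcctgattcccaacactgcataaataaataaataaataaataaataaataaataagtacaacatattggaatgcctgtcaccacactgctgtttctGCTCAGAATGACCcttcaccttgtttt
Smad3, intron, chr9:63679210-63679410: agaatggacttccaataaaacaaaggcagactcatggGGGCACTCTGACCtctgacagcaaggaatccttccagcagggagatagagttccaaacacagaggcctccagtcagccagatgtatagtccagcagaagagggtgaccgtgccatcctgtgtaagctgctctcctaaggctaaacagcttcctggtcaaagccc
Tgfbr3, intron, chr5:107219443-107219643: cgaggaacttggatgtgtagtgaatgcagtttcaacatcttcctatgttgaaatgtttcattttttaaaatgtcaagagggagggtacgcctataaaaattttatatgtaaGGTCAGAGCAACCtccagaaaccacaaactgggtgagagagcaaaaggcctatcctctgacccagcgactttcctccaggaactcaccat
Smad3, second intronic site, chr9:63702714-63702914: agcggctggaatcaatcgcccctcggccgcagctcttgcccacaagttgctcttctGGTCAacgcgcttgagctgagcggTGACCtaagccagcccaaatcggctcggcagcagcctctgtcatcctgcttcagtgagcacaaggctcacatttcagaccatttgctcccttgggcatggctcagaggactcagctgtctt

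Positions in the element were counted from 1 at its 5′ end on the plus strand. The element upstream of Tgfb2 carried the substitution G1T, the intronic one of Tgfb2 G2C and that of Smad3 T3G, each the ERE base followed by the base of the site. The Tgfbr3 element had 2 substitutions, T9C and G10A, and its middle lay 17 bp from the summit. An element with at most 1 mismatch lay within 100 bp of a summit in 5 of the 280 regions (1.79%), against 1.85% of all regions. With at most 2 mismatches at the strongest summit alone, the shares were 11.8% and 9.11%. The AP-1 motif TGANTCA lay at the strongest summit of 7.50% of the regions of the 10 genes and of 5.92% of all regions, and a single arm, GGTCA or TGACC, at 110 of the 280 (39.3%) and 29.1% of all. Each motif was searched on both strands, and the element contains the single arms. The share with an element of at most 1 mismatch was thus close to that of all regions, and the other 3 shares were higher at the 10 genes. None of these differences was tested.

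ESR1 peaks were dense at Tgfbr3 and Smad7 and sparse at Smad2 and Smad4. Tgfbr3 had 3.36 peaks per 10 kb of window (mean of 12 libraries), and only 0.439% of the 19575 genes had more. Smad7 followed with 3.25 peaks per 10 kb, exceeded by 0.557% of genes. Smad3, Tgfbr2 and Tgfb1 had 1.86, 1.79 and 1.60 peaks per 10 kb, and Tgfb3 had 1.14. Tgfb2 and Tgfbr1 had 0.412 and 0.377, near the median of 0.380 over all genes, and Smad4 and Smad2 had 0.295 and 0.168. The co-receptor and the inhibitory Smad were therefore the densest members, and the common Smad and SMAD2 the sparsest.

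**Figure D1:**
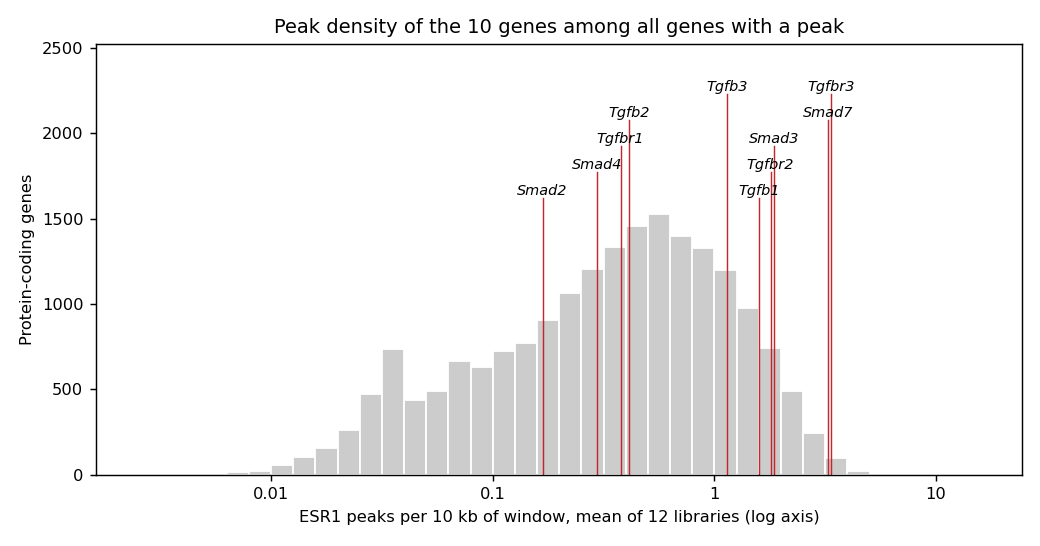
ESR1 peaks per 10 kb of window (mean of 12 libraries, log axis) for the 19575 protein-coding genes with a peak (grey bars, number of genes) and for the 10 TGF-β genes (red lines). Tgfbr3 at 3.36 and Smad7 at 3.25 sit in the right tail, and Tgfb2 and Tgfbr1 lie near the median of 0.380.

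Of the 280 regions, 19 (6.79%) had a peak in all 12 libraries, against 3.42% of all regions, and 125 (44.6%) were found in 1 library only, against 64.2%. The shares over all regions leaned on E2 replicate 1. Without it the regions numbered 165008 in place of 228284, and those of the 10 genes 265 in place of 280. These shares and those of the motifs were not taken without it. The summits of 195 regions were intronic, 44 lay within 3 kb of a transcription start, 19 were exonic and 22 intergenic. Of the 44, only 21 were at a start of the member gene itself. Each member had a region at its own start in at least 10 libraries, and those of Tgfb3, Tgfbr1, Tgfbr2, Tgfbr3, Smad3 and Smad7 were found in all 12.

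The highest-ranked promoter sites belonged to Tgfbr2 and Smad7. Peaks were ranked within each list by q-value, so that rank 1 is the strongest peak of a library. The Tgfbr2 promoter region, chr9:116172152-116176638, had ranks of 254, 174 and 765 with vehicle and 260, 250 and 174 with fulvestrant. Its ranks were 245, 1501.5 and 671 in E2 libraries and 670, 1510.5 and 2144.5 in those with E2 plus fulvestrant. The ranks of the 6 libraries given E2 were on average 1.74 log2 units higher in number, that is farther down the list, than those of the 6 not given it (exact permutation test, two-sided, p = 0.0281, adjusted p = 0.307 over all 7816 regions found in every library). These groups overlapped, with and without E2 replicate 1. That library ranked at 245, and vehicle replicate 3 at 765 lay behind E2 replicate 3 at 671 and E2 plus fulvestrant replicate 1 at 670. Between E2 and vehicle, the other measures were not lower with E2: fold enrichment was 21.9, 7.12 and 9.96 with E2 and 7.75, 6.88 and 4.67 with vehicle. The −log10 q was 135, 41.9 and 74.8 with E2 against 46.1, 41.0 and 20.2 with vehicle. Between E2 plus fulvestrant and fulvestrant, both measures followed the ranks. Fold enrichment was 6.53, 5.48 and 5.88 with both agents and 7.89, 11.3 and 7.66 with fulvestrant. The −log10 q was 32.1, 27.4 and 26.3 with both agents and 51.5, 77.3 and 48.7 with fulvestrant.

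At the Smad7 promoter, ranks were 1041, 1259 and 496.5 with vehicle and 348.5, 955.5 and 386 with E2. They were 667, 1771 and 1503 with E2 plus fulvestrant and 375, 440.5 and 435 with fulvestrant. All libraries kept this site within their 1771 strongest peaks, and the difference between libraries given and not given E2 was 0.38 log2 units (exact permutation p = 0.439). Tgfb3, Tgfbr3, Smad3 and Tgfbr1 had median promoter ranks of 2396, 1848, 3795 and 6707, and the promoters of Tgfb1, Smad4, Smad2 and Tgfb2 had 12026, 12718, 20868 and 25684. Each of these last 4 promoters lacked a peak in 1 or 2 libraries.

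The Tgfb3 promoter ranked lowest with E2 plus fulvestrant. Its ranks were 7810, 4346 and 6300 in those libraries, 1768, 3593 and 1005 with E2, 1610.5, 2919 and 3348 with vehicle, and 1872.5, 1375.5 and 997 with fulvestrant. All 3 libraries with E2 plus fulvestrant lay behind the other 9 in rank. Fold enrichment and −log10 q overlapped with those of vehicle, with fold 3.29, 4.35 and 4.35 against 4.94, 3.77 and 3.62 and −log10 q 8.0, 15.0 and 14.0 against 23.8, 12.1 and 9.47. Of the 19 member regions found in every library, it was the 1 region ranked higher in all E2 than in all E2 plus fulvestrant libraries, a pattern of 6.24% of all such regions. The opposite pattern held for 1 member region, in a Smad7 intron at chr18:75390802-75393569, and for 2.51% of all. Vehicle libraries all ranked above those with E2 plus fulvestrant at 2 of the 19, both in the Tgfb3 window, against 14.9% of all. These counts were read after the values were seen, and the member counts were near the shares for all regions.

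Over the 10 genes together, the number of peaks did not separate the treatments. Vehicle libraries had 175, 126 and 109 peaks in the 10 windows (mean 137 ± 34.3 SD, n = 3), and E2 libraries 82, 166 and 188 (145 ± 55.9). With E2 plus fulvestrant there were 133, 166 and 190 peaks (163 ± 28.6), and with fulvestrant 140, 164 and 168 (157 ± 15.1). All 4 groups overlapped, and E2 exceeded vehicle by 8.67 peaks on average, a difference that rose to 40.3 without E2 replicate 1. The E2 lists were longer, with 104571, 60910 and 68971 peaks against 51239, 34293 and 39763 with vehicle. As a share of each list, E2 libraries had 0.0784%, 0.273% and 0.273% in the windows. These shares lay below vehicle (0.274% to 0.367%) and E2 plus fulvestrant (0.287% to 0.326%) and overlapped with fulvestrant (0.203% to 0.367%).

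Among ligands, Tgfb2 was the gene whose peak number was higher with E2 than in the other treatments. E2 libraries had 8, 7 and 8 peaks at Tgfb2 (mean 7.67 ± 0.577 SD, n = 3), against 2, 4 and 1 with vehicle (2.33 ± 1.53). With E2 plus fulvestrant there were 4, 4 and 5 peaks (4.33 ± 0.577), and with fulvestrant 1, 4 and 3 (2.67 ± 1.53). All E2 libraries thus lay above all others, and those with E2 plus fulvestrant lay at or above the highest vehicle library. Each of these 3-against-3 comparisons with E2 gave an exact permutation p of 0.1, which is the smallest that 20 arrangements allow. For the 6 libraries given E2 against the 6 not given it the difference was 3.50 peaks (exact permutation test, p = 0.0130), with an adjusted p of 1.00 over 19575 genes.

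Tgfb2 was 1 of 10 members whose E2 libraries all exceeded the vehicle libraries, against 8.80% of all genes, and 1 of 10 whose E2 libraries all exceeded those with E2 plus fulvestrant, against 4.11%. No member had E2 below vehicle (0.475% of genes) or below E2 plus fulvestrant (0.659%). None separated E2 plus fulvestrant from vehicle upward (3.20%) or downward (0.444%), or fulvestrant from vehicle upward (2.94%) or downward (0.393%). With 10 members, 1 called gene is close to these background shares. In the test of libraries given against not given E2, 0% of genes passed an adjusted p of 0.05, although 516 genes (2.64%) had an unadjusted p under 0.05. At least 848 genes at the smallest possible p would have been needed for any to pass.

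The Tgfb2 count moved with the length of the lists. Among the 30000 strongest peaks of each library, E2 libraries had 1, 1 and 3 peaks at Tgfb2, vehicle libraries 2, 2 and 1, and those with E2 plus fulvestrant 3, 1 and 3. The peaks behind the equal totals also differed. E2 replicate 1 had peaks in 8 regions of the Tgfb2 window, of which 3 were shared with another E2 library, whereas all 6 regions of E2 replicate 2 were among the 8 of E2 replicate 3. Without E2 replicate 1, E2 exceeded vehicle by 5.17 peaks and E2 plus fulvestrant by 3.17, and the groups still did not overlap.

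Tgfb1, the ligand most often linked to fibrosis, had 12, 4 and 5 peaks with E2 and 6, 2 and 6 with vehicle. It had 6, 6 and 7 with E2 plus fulvestrant and 6, 11 and 2 with fulvestrant, where the highest counts came from the libraries with many repeat-masked peaks. The strongest site of its window, chr7:25709474-25712869, lay beyond the 3′ end of Tgfb1 in an exon of Ccdc97, in all 12 libraries. A region 6.09 kb upstream, chr7:25679880-25681093, lay at the start of B9d2 and ranked lower with E2. Its ranks were 17803 to 26897 in E2 libraries and 2885 to 15304.5 with vehicle (libraries given against not given E2, 1.30 log2 units, exact permutation p = 0.0173, adjusted p = 0.270). Vehicle libraries all ranked above E2 libraries at 2 of the 19 member regions found in every library, against 9.6% of all 7816. Fold enrichment at this region overlapped, with 3.92, 2.48 and 2.94 with E2 and 3.86, 2.46 and 2.27 with vehicle. The −log10 q overlapped too, with 7.56, 5.49 and 10.2 against 17.7, 5.08 and 2.99. Tgfb3 had 4, 4 and 3 peaks with E2, 4, 5 and 4 with vehicle, 4, 6 and 7 with E2 plus fulvestrant and 2, 8 and 7 with fulvestrant.

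**Figure D2:**
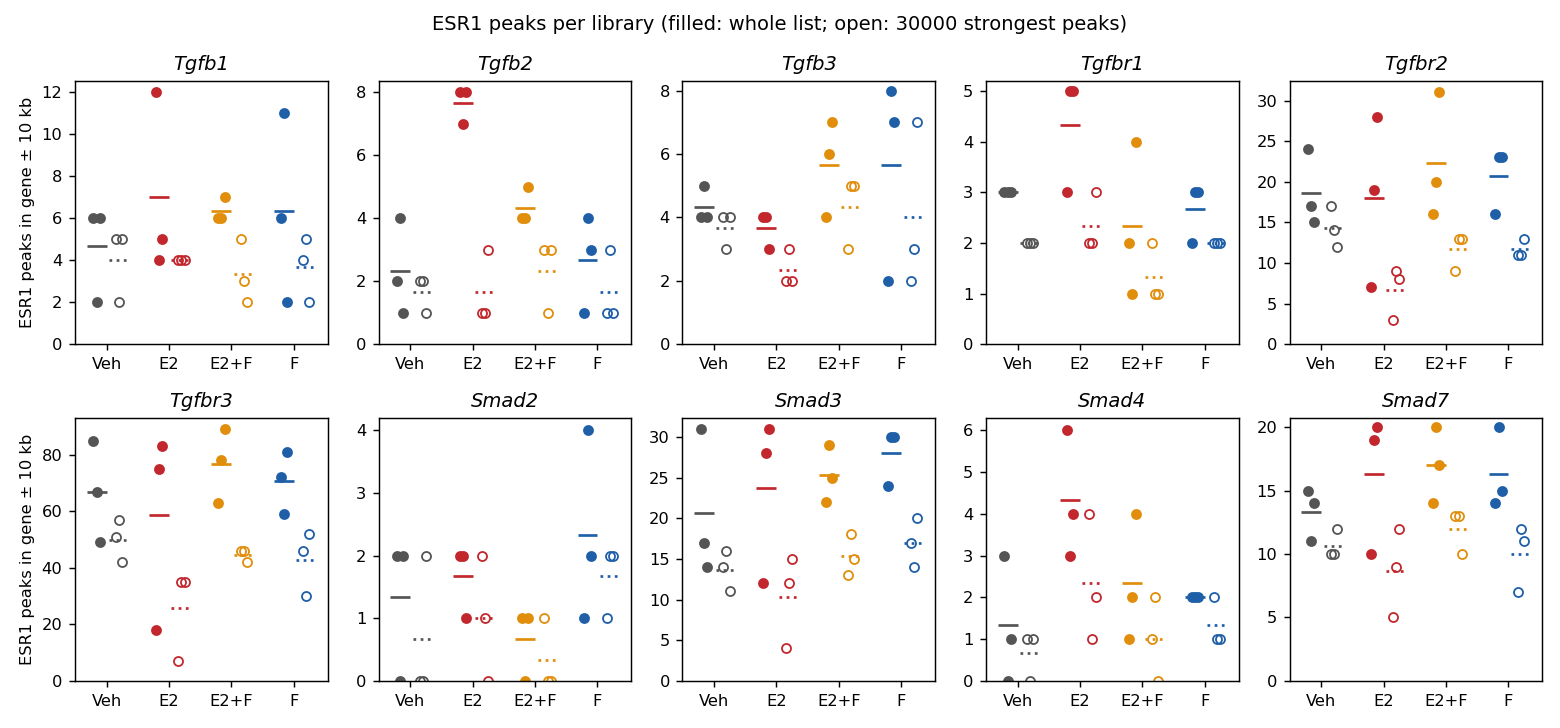
ESR1 peaks in the gene body plus 10 kb on each side for each gene (vertical axis, number of peaks) and treatment (Veh, vehicle; E2+F, E2 plus fulvestrant; F, fulvestrant), 1 point per library with the mean as a line. Filled points use the whole list and open points the 30000 strongest peaks; Tgfb2 stands out with 7 to 8 peaks in the E2 libraries on the whole lists and with 1 to 3 on the equal lists.

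The site upstream of Tgfb2, chr1:186712488-186713093, had the lowest median rank of the Tgfb2 regions found in at least 6 libraries, and it was the 1 Tgfb2 region of that kind with an element. It lay 6.84 kb upstream of the gene, inside the noncoding transcript Gm37849, and its summits fell within 139 bp of each other. Its strongest summit was 273 bp from the start of Gm37849, so within 3 kb it counted as a promoter region of that transcript. Peaks were present in E2 replicates 2 and 3 (ranks 12664.5 and 13457.5, fold enrichment 5.23 and 5.83) and in all 3 libraries with E2 plus fulvestrant (ranks 9891, 4361.5 and 5822, fold 4.46, 6.68 and 6.65). Vehicle replicate 3 (rank 14495, fold 3.44) and fulvestrant replicate 3 (rank 22500.5, fold 3.30) also had a peak, and the other 5 libraries had none. Peaks were thus present in 5 of 6 libraries given E2 and 2 of 6 not given it, and fold enrichment with fulvestrant added overlapped that with E2 alone.

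To compare sites that some libraries lack, each list was cut to 30000 peaks and a library without the site was placed behind the last rank. Only regions on the cut lists of at least 3 libraries were kept. This comparison was added after the data were seen. For the Tgfb2 site the libraries given E2 ranked 1.28 log2 units stronger (exact permutation p = 0.0195, adjusted p = 0.397 over 30958 regions). Without E2 replicate 1 and fulvestrant replicate 2 the difference was 1.54 units in the same direction, with an exact permutation p of 0.00794, the smallest that 252 arrangements allow, and an adjusted p of 0.131. Only 2 libraries not given E2 had this site, so it was kept only through the libraries given E2. Neither p can therefore serve as a test of it. The elements in the Tgfb2 intron and in the first Smad3 intronic site had peaks in 1 and 3 libraries. At Tgfb2 this was E2 replicate 1 (rank 87174), and at Smad3 these were vehicle replicate 3, E2 plus fulvestrant replicate 2 and fulvestrant replicate 3. At Smad7, an intronic region, chr18:75384457-75388275, had a peak in all 12 libraries and the element at the summit in 5 of them. Its ranks ran from 6007 to 29147.5 with vehicle and from 8940.5 to 16453 with E2, and libraries given and not given E2 overlapped (exact permutation p = 0.779). The other Smad7 region with an element, chr18:75363292-75364082, lay 4.00 kb upstream of the gene. The element lay at the summit in 1 of its 4 libraries, and the best match at its strongest summit had 2 mismatches. This region had a peak in E2 replicates 2 and 3 (ranks 45074 and 29410.5) and in E2 plus fulvestrant replicates 2 and 3 (ranks 21813 and 44472.5), and in none of the 6 libraries not given E2.

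**Figure D3:**
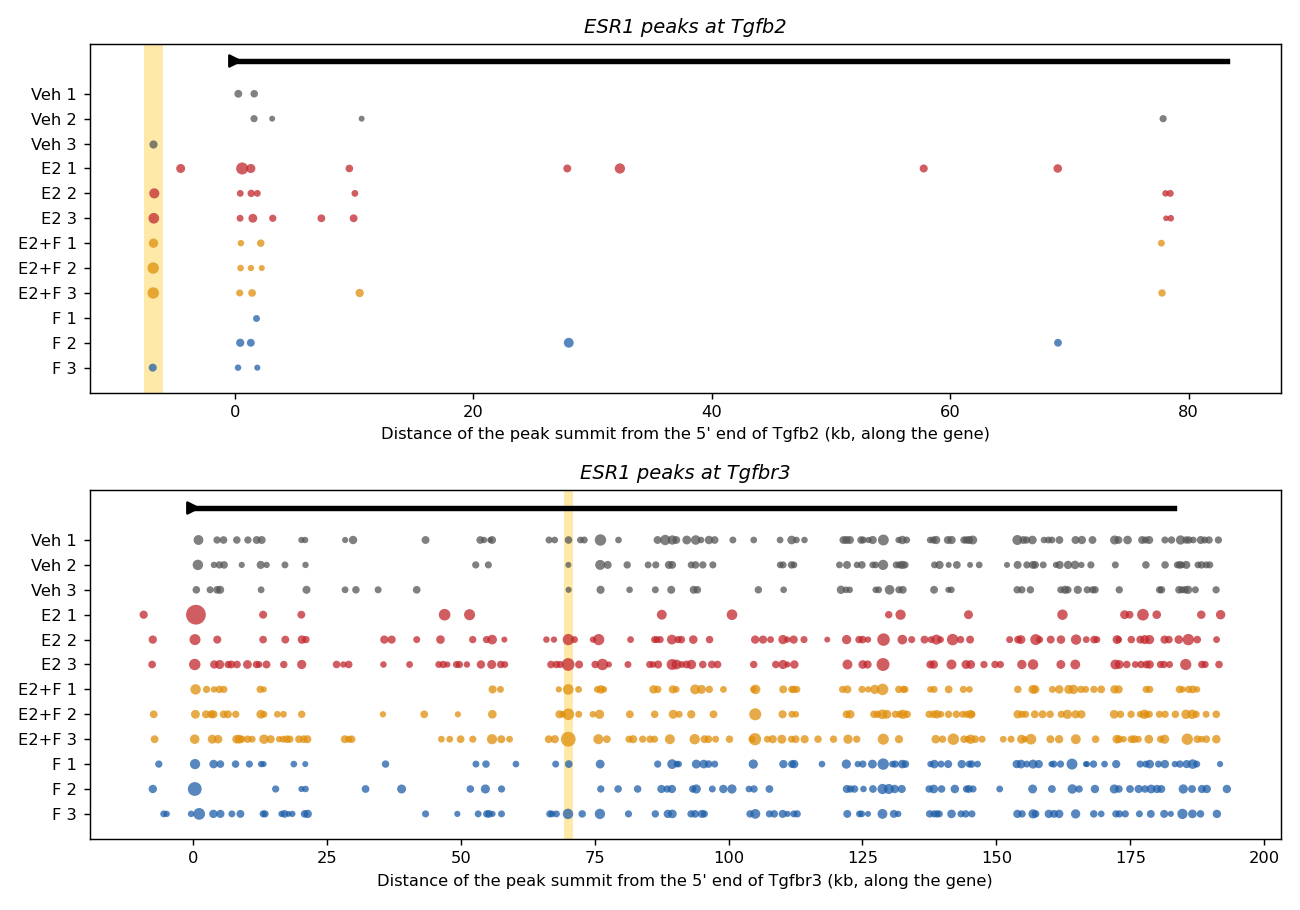
ESR1 peaks along Tgfb2 (top) and Tgfbr3 (bottom), 1 row per library, with the distance of each summit from the 5′ end of the gene in kb on the horizontal axis, point area in proportion to fold enrichment, and the gene as a black bar with an arrowhead at its 5′ end. The shaded strips mark the Tgfb2 upstream site, present in 7 libraries, and the Tgfbr3 intronic site, present in 10 libraries with the largest points where E2 was given.

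Away from promoters, the region with the lowest median rank among those in at least 6 libraries lay in an intron of Tgfbr3. This region, chr5:107218631-107223690, had its strongest summit 70.1 kb into the gene, and the summits of its 10 libraries fell within 147 bp. Its ranks were 1482 and 1309.5 in E2 replicates 2 and 3 and 989, 680 and 324 with E2 plus fulvestrant. Vehicle libraries had ranks of 11969.5, 31751 and 34479.5, and fulvestrant replicates 1 and 3 had 10315 and 1849.5. E2 replicate 1 and fulvestrant replicate 2 had no peak there. Fold enrichment was 6.56 and 8.35 with E2 and 5.80, 6.91 and 11.2 with E2 plus fulvestrant. It was 1.86 to 2.99 with vehicle and 3.08 and 5.59 with fulvestrant alone, so the 5 libraries with E2 did not overlap with the 5 without.

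Without the outlying pair, the Tgfbr3 site was 3.83 log2 units stronger in rank in the libraries given E2 (exact permutation p = 0.00794, again the lower limit of the test, with an adjusted p of 0.104 over 12343 regions). With all 12 libraries and equal lists the difference was 3.15 units (exact permutation p = 0.0303, adjusted p = 0.414). This site was among those chosen because its ranks separated the libraries given E2, so neither p can serve as a test of it. Another Tgfbr3 intronic region, chr5:107183693-107185969, was picked from its values because it ranked highest with E2 plus fulvestrant, with ranks of 6433.5, 2211.5 and 2818. It ranked 26515 and 36609 in E2 replicates 2 and 3, 38424.5 and 24675.5 in vehicle replicates 1 and 3, and 5480 to 35608 with fulvestrant.

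The Tgfbr3 peak number itself was 18, 75 and 83 with E2, 85, 67 and 49 with vehicle, 63, 78 and 89 with E2 plus fulvestrant, and 72, 59 and 81 with fulvestrant. These groups overlapped, and the low value was that of E2 replicate 1. Among the 30000 strongest peaks, E2 libraries had 7, 35 and 35 peaks at Tgfbr3, below the 42 to 57 of vehicle and the 42 to 46 of E2 plus fulvestrant libraries. Tgfbr2 had 3, 9 and 8 peaks on these equal lists with E2 and 12 to 17 with vehicle. The 10 windows together then held 34, 77 and 84 peaks with E2, 92 to 106 with vehicle and 91 to 102 with E2 plus fulvestrant. Fulvestrant libraries had 93, 83 and 111 peaks in all and 46, 30 and 52 at Tgfbr3, so they overlapped with E2 in both. On equal lists, then, E2 libraries had fewer peaks in the 10 windows than vehicle or E2 plus fulvestrant libraries, also without E2 replicate 1. This was not so of each gene: mean numbers with E2 and vehicle were 4.00 and 4.00 at Tgfb1, 1.67 and 1.67 at Tgfb2 and 2.33 and 0.67 at Smad4. All E2 libraries lay below all vehicle libraries at 2 of the 10 genes, Tgfbr2 and Tgfbr3, against 4.48% of the 16888 genes with a peak on these lists. They lay below all E2 plus fulvestrant libraries at 1, Tgfbr3, against 2.45%.

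Smad3, the receptor-regulated Smad whose loss blunts fibrosis in mouse models, had 12, 28 and 31 peaks with E2 and 31, 17 and 14 with vehicle. It had 22, 29 and 25 with E2 plus fulvestrant and 24, 30 and 30 with fulvestrant. Its second intronic site, chr9:63701473-63703757, lay 55.2 kb into the gene and was found in 10 libraries. E2 replicates 2 and 3 had ranks of 3823 and 4978, and libraries with E2 plus fulvestrant 7130.5, 7694 and 1888.5. Vehicle replicates 1 and 2 had 15298.5 and 14692, and fulvestrant libraries had 13571.5, 15725.5 and 21153, all behind any library given E2 that had the peak. On equal lists the libraries given E2 ranked 1.5 log2 units stronger (exact permutation p = 0.0303, adjusted p = 0.414), and 1.99 units stronger without the outlying pair (p = 0.00794, adjusted p = 0.131). The site was picked for that last p, so neither p can serve as a test of it. The summits of this region spread over 972 bp.

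**Figure D4:**
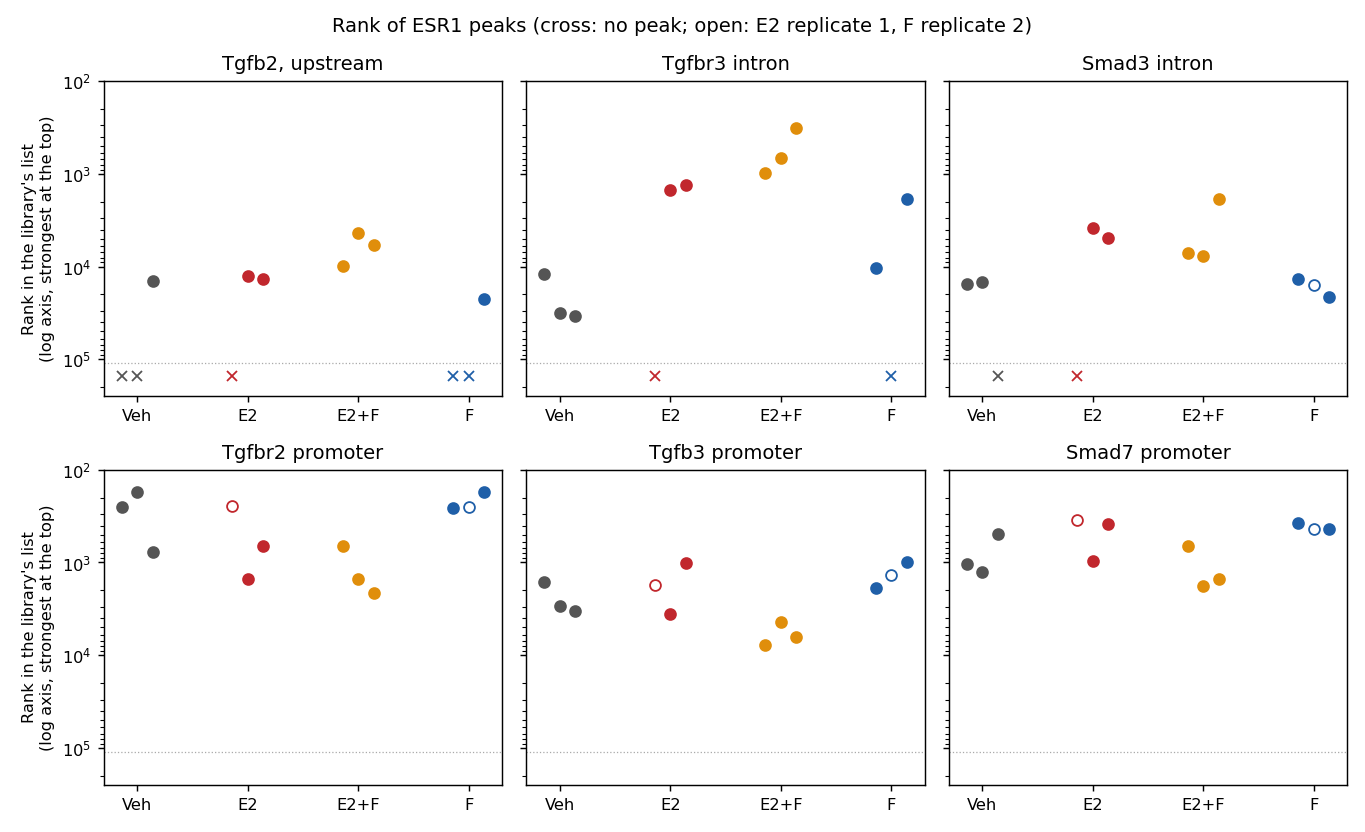
Rank of the strongest ESR1 peak of 6 regions in each library's list (vertical log axis, rank 1 at the top) by treatment (Veh, vehicle; E2+F, E2 plus fulvestrant; F, fulvestrant), with crosses for libraries without a peak and open circles for E2 replicate 1 and fulvestrant replicate 2. In the upper row the sites of Tgfb2, Tgfbr3 and Smad3 rank higher in the libraries given E2 that had a peak, with and without fulvestrant; in the lower row the promoters of Tgfbr2, Tgfb3 and Smad7 have a peak in all 12 libraries.

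Across the regions of all genes such differences were common. On equal lists without the outlying pair, 7 of 71 tested regions of the 10 genes had an unadjusted p under 0.05, against 17.4% of all 30393 regions, and 5 of the 7 were stronger with E2. With all 12 libraries the counts were 6 of 69 and 9.99%, and 3 of the 6 were stronger with E2. Among regions found in every library, 2 of 19 had a p under 0.05, against 14.2% of all 7816, and 0 of the 2 were stronger with E2. The direction thus moved with the setting, and its share over all regions was not taken. Of all regions found in every library, 0% passed an adjusted p of 0.05. Ranks of these regions were weaker in libraries given E2 by a median of 0.47 log2 units over all regions and 0.42 over the 19. At least 339 regions at the smallest possible p would have been needed for a call.

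Complete separation of 2 treatments by presence was rare. A region in the 3′ untranslated part of Tgfbr2, chr9:116084287-116085309, had a peak in all 3 E2 libraries and in none with vehicle or with E2 plus fulvestrant. These were weak peaks, with ranks of 41930 to 63140 in E2 libraries, and fulvestrant replicates 2 and 3 had it too. A Tgfbr3 intronic region, chr5:107242394-107243886, was in all E2 and no vehicle libraries and in 1 library with E2 plus fulvestrant, and its strongest summit was wholly repeat-masked. These were 2 of 280 regions in all E2 and no vehicle libraries, against 0.344% of all regions, and no member region showed the reverse (0.0162%).

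A region at the start of Tgfbr1, chr4:47353200-47354040, was in all E2 libraries (ranks 3542, 24011.5 and 13503.5) and in none with E2 plus fulvestrant. It was also in vehicle replicates 1 and 2 and fulvestrant replicates 1 and 2. The neighboring Tgfbr1 promoter region, chr4:47351628-47353109, had a peak in all 12 libraries. A Smad3 intronic region, chr9:63696594-63698440, followed the same rule with ranks of 30536 to 78224 in E2 libraries. With the Tgfbr2 region these made 3 of 280 regions that every E2 library had and every library with both agents lacked, against 0.207% of all regions, and no member region showed the reverse (0.0732%).

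Of the other comparisons, 1 Smad3 intronic region, chr9:63674544-63675558, was in all libraries with E2 plus fulvestrant (ranks 18505.5 to 25733.5) and in no vehicle library, against 0.569% of all regions. It was also in E2 replicates 2 and 3 and fulvestrant replicate 3. No member region was in all vehicle and no E2 plus fulvestrant libraries (0.0434%) or in all fulvestrant and no vehicle libraries (0.144%). A region downstream of Smad7, chr18:75397231-75398536, was in all vehicle and no fulvestrant libraries, against 0.0924% of all regions, and in 4 libraries given E2.

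The remaining members did not separate the treatments by peak number. Tgfbr1, the type I receptor kinase, had 3, 5 and 5 peaks with E2, 3 in each vehicle library, 2, 1 and 4 with E2 plus fulvestrant and 2, 3 and 3 with fulvestrant. Tgfbr2, the type II kinase, had 7, 19 and 28 with E2 and 24, 17 and 15 with vehicle. Smad4, the common partner of the receptor Smads, had 6, 3 and 4 peaks with E2, 3, 0 and 1 with vehicle, 1, 2 and 4 with E2 plus fulvestrant and 2 in each fulvestrant library. Its E2 libraries touched the highest vehicle library and did not separate from it, and the largest count was that of E2 replicate 1. Smad7 had 10, 19 and 20 peaks with E2 and 15, 11 and 14 with vehicle. Smad2 had 0 to 4 peaks in every library.

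Further separations appeared without E2 replicate 1. In that case the E2 libraries of Tgfbr1 and Smad7 also lay above all vehicle libraries, by 2 and 6.17 peaks, and those of Tgfb1 lay below all libraries with E2 plus fulvestrant by a mean of 1.83 peaks. The rule is easier to meet with 2 libraries against 3, and shares over all genes were higher as well. With this library left out, 3 of 10 members lay above vehicle, against 16.9% of all genes, 2 above E2 plus fulvestrant, against 8.54%, and 1 below it, against 1.5%. Regions in all E2 and no vehicle libraries then numbered 15 of 265 member regions, against 4.54% of all regions, and those that no library with both agents shared numbered 8, against 2.13%.

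A list of 49 other genes of the pathway, covering further ligands of the family, receptors, Smads, latency and adaptor proteins, inhibitors and targets, was counted in the same way, and all 49 had a peak. E2 libraries all exceeded vehicle in 6 of them (12.2%, against 8.80% of all genes) and all exceeded E2 plus fulvestrant in 4 (8.16%, against 4.11%). In neither comparison did a gene of the list go the other way, which 0.475% and 0.659% of all genes did. These differences from the background were not tested. The 4 were Bmp4, a bone morphogenetic protein, Acvrl1, a type I receptor, Lrrc32, which holds latent TGF-β on the cell surface, and Id2, a target of BMP signaling. Acvrl1 had 8 peaks in each E2 library, 6, 6 and 7 with E2 plus fulvestrant and 5, 3 and 4 with vehicle. Lrrc32 had 12, 7 and 7 in the E2 libraries, 6, 3 and 2 with vehicle, and 3, 5 and 4 in the libraries with both agents. Bmp4 had 5, 4 and 4 with E2, 2, 1 and 2 with vehicle and 1, 2 and 3 with E2 plus fulvestrant. Id2 had 3, 3 and 4 with E2 and 1, 2 and 2 with E2 plus fulvestrant. With vehicle Id2 had 4, 3 and 3, which overlapped with E2. Fulvestrant alone also overlapped with E2 at each of these genes. It gave 2, 6 and 4 peaks at Bmp4, 4, 10 and 7 at Acvrl1, 5, 11 and 4 at Lrrc32 and 2, 4 and 2 at Id2. E2 plus fulvestrant exceeded vehicle in 2 genes and lay below it in 1, and fulvestrant exceeded vehicle in 1. None of the 49 passed an adjusted p of 0.05 for E2.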

How the data were processed

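ESR1 ChIP-Seq peak lists of 12 libraries were used; the input sample was not analysed here. The methods and processing notes name trimming with Trimmomatic (0.39), alignment to mm10 with Bowtie2, duplicate removal with Picard (2.21.4) and peak calling with MACS2. The deposited lists give, as computed by the authors, a fold enrichment (a ratio), a p-value and a within-library q-value, both as −log10, and a score that was not used. The smallest −log10 p in a deposited list lay between 2.00 and 2.04, and 5.64% to 26.1% of peaks had a q-value above 0.05. Read depth is not in the lists.

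Summits were assigned to GENCODE vM21 windows (gene body plus 10 kb). Peaks of the 12 lists that shared at least 1 bp were merged into regions. Peaks were ranked by q-value within a list, and the strongest peak stood for a region. Peak numbers of all 19575 genes and log2 ranks of the 7816 regions found in every library were compared with two-sided exact permutation tests (6 libraries given E2 against 6 not given it, 924 arrangements) with Benjamini-Hochberg adjustment; treatments were compared by whether their 3 libraries overlapped. With 3 against 3 the smallest p is 0.1. Named regions were the promoter region found in most libraries, the region of lowest median rank among those in at least 6 libraries, regions in 3 of 3 libraries of 1 treatment and 0 of 3 of another, and regions with an element. Regions outside these rules, such as the second Smad3 intronic site, were named after their values were seen. Sequence was read from GRCm38.p6. Scripts (Python 3, numpy and scipy) were tested on simulated data. The members and lists were chosen with earlier results of these data known, and replicates may be technical, in which case p-values cover only that spread.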

Additional observations from a re-analysis of the deposited data

How the results depend on the processing

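The alternatives were list filters, window and region definitions, rank definitions, left-out libraries and a replicate block. The differences in total peaks moved by less than the pooled SD of the 2 groups compared (46.4 peaks for E2 and vehicle, 44.4 for E2 and E2 plus fulvestrant, 31.6 for E2 plus fulvestrant and vehicle, 26.5 for fulvestrant and vehicle), but several changed sign. E2 minus vehicle was 8.67 and became -1.67 without E2 replicate 2, -12.7 without E2 replicate 3, -5.17 without vehicle replicate 3 and 40.3 without E2 replicate 1. With the 30000 strongest peaks E2 minus vehicle was -36.3, E2 plus fulvestrant minus vehicle went from 26.3 to -5.00 and fulvestrant minus vehicle from 20.7 to -5.67. E2 minus E2 plus fulvestrant went from -17.7 to 13.7 at a −log10 q of at least 5 and to 14.0 without E2 replicate 1, and libraries given minus not given E2 from 7.17 to -17.8 with the 30000 strongest peaks and -0.43 without vehicle replicate 3. No gene and no region of the 10 genes passed an adjusted p of 0.05 in any setting. Counts of member genes and regions were small and moved with the setting; the cause was not tested. At a q-value of at most 0.05, E2 exceeded vehicle in 2 genes and E2 plus fulvestrant in 2, and 0 regions were in vehicle and not fulvestrant libraries. At a −log10 q of at least 5 these were 2, 2 and 0, fulvestrant exceeded vehicle in 1, and 5 regions were in E2 and not vehicle, 3 in E2 plus fulvestrant and not vehicle, and 1 in fulvestrant and not vehicle libraries. With the 30000 strongest peaks, E2 exceeded vehicle in 0 genes and lay below it in 2, exceeded E2 plus fulvestrant in 0 and lay below it in 1, Tgfb2 had 0.67 fewer peaks with E2 than with E2 plus fulvestrant (-0.67), and 0 regions were in E2 and not vehicle, 1 in E2 and not E2 plus fulvestrant, and 0 in vehicle and not fulvestrant libraries. Without repeat-masked peaks 1 region was in E2 and not vehicle libraries. Without E2 replicate 1 and fulvestrant replicate 2 together, E2 exceeded vehicle in 3 genes, exceeded E2 plus fulvestrant in 2 and lay below it in 1 (Tgfb1, -1.83 peaks, as without E2 replicate 1 alone; leaving out other single libraries gave up to 2.17), and 15, 8 and 1 regions were in E2 and not vehicle, E2 and not E2 plus fulvestrant, and fulvestrant and not vehicle libraries. The gene body alone gave 1 gene higher with E2 plus fulvestrant and 1 with fulvestrant than with vehicle, and 50 kb on each side gave 2 higher with E2 than vehicle. With 50 kb on each side Tgfb2 no longer separated E2 from E2 plus fulvestrant (4.67 peaks). Regions built from 200 bp around summits numbered 1 in E2 and not vehicle, 4 in vehicle and not E2, 3 in E2 plus fulvestrant and not E2, 6 in E2 plus fulvestrant and not vehicle, 1 the reverse, and 3 in fulvestrant and not vehicle. With presence in at least 2 of 3 libraries the counts were 16 in E2 and not vehicle, 3 the reverse, 9 in E2 and not E2 plus fulvestrant, 7 in E2 plus fulvestrant and not vehicle, 4 the reverse, 5 in fulvestrant and not vehicle, and 4 the reverse.

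Leaving out 1 library at a time, E2 exceeded vehicle in 1 to 3 genes and E2 plus fulvestrant in 1 to 3, and lay below E2 plus fulvestrant in 0 to 1. E2 plus fulvestrant exceeded vehicle in 0 to 2 genes and lay below it in 0 to 1, and fulvestrant exceeded vehicle in 0 to 2. Regions in E2 and not vehicle libraries numbered 2 to 15, the reverse 0 to 1, E2 and not E2 plus fulvestrant 3 to 8, E2 plus fulvestrant and not vehicle 1 to 6, the reverse 0 to 2, fulvestrant and not vehicle 0 to 5, and the reverse 1 to 3.

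With the replicate block, E2 exceeded vehicle of the same number in all 3 pairs in 2 genes, exceeded E2 plus fulvestrant in 2 and lay below it in 2, and no other call changed. Deviations of same-numbered libraries in peak number correlated between -0.49 and 0.49, with 6 of 18 pairs above 0.1. In log2 rank they correlated between -0.57 and 0.44, again with 6 of 18 above 0.1. A library correlated best with its own number in 4 of 12 cases by peak number and 6 of 12 by rank. With 3 libraries per treatment, these values cannot decide whether the numbers mark pairs.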
